A study of Mus musculus with 3 samples.

Results

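The 36 genes described here are immediate early and stress response genes, whose transcripts can build up within minutes of a stimulus without new protein synthesis, together with the feedback, growth arrest and chaperone genes that follow them. They were chosen by symbol, and all 36 were found among the 32287 features of a droplet single-cell RNA sequencing matrix from mouse PC cells. PC cells came from esophageal organoids of mice with Trp53 floxed/floxed alleles. Ad-Cre-EGFP, an adenovirus that delivers Cre recombinase, had removed Trp53, which encodes p53, and CRISPR/Cas9 had disrupted Cdkn2a, which encodes inhibitors of the cell cycle. The organoids were broken into cells and grown as a culture in DMEM with 10% FBS, at first with Y-27632 and later without it. The cells expressed Cas9 constitutively, received a barcode library by lipofection, grew for 3 passages and were sorted as live RFP-positive cells, with about 1000000 cells sorted and about 20000 recovered. Every cell set compared below shares these alleles and treatments. The labels do not say whether the culture was 1 clone, and cells with intact Trp53 and Cdkn2a were not analysed here.

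Fos and Jun family proteins pair to form AP-1, a transcription factor that acts downstream of MAP kinase signalling, and Egr1 is a zinc finger factor driven by the same signals. Dual specificity phosphatases switch those kinases off again, Zfp36 family proteins hasten the decay of short-lived mRNAs, and Nfkbia encodes the inhibitor that holds NF-κB in the cytoplasm. In epithelium the programme is known for its response to growth factors, wounding and inflammatory signals. It is also known to be switched on by enzymatic dissociation of tissue and by flow sorting.

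The matrix held 18116 cell barcodes, all distinct, and 47720034 unique molecular identifiers (UMIs), each of which marks 1 captured transcript. A cell was kept if 500 genes or more and 1000 UMIs or more were counted in it and no more than 20% of its UMIs came from mitochondrial genes, which left 14925 cells with 45443280 UMIs and a median of 2955 UMIs a cell. Levels are given as CPM, the UMIs of a gene per 1000000 UMIs summed over a set of cells, with exact 95% Poisson intervals. There was 1 culture and 1 matrix, so no test between sets of cells and no p-value is given, and every interval covers counting error only. Shares of cells were read after each cell was thinned at random to 1500 UMIs, which 13281 cells reached. Markers of other cell types were nearly absent, with 1 UMI of Ptprc, 1 of Cd3e, 1 of Lyz2 and none of Tyrobp, Cdh5, Emcn, Hbb-bs or Hba-a1 in all kept cells. Cd68 had 339 UMIs and Pecam1 had 56.

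The 36 genes supplied 227489 UMIs in kept cells, or 0.501% of all UMIs (exact 95% binomial interval 0.499 to 0.503). A thinned cell held a median of 7 UMIs of these genes (5th to 95th percentile 2 to 15) from a median of 5 different genes, and 70 of the thinned cells (0.527%) held none. Nearly every cell therefore carried some transcripts of the set. The 5 most abundant genes gave 57.5% of the UMIs of the set. Of the 36 genes, 29 reached 10 CPM, as did 8462 of all 32287 features.

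**Figure D1:**
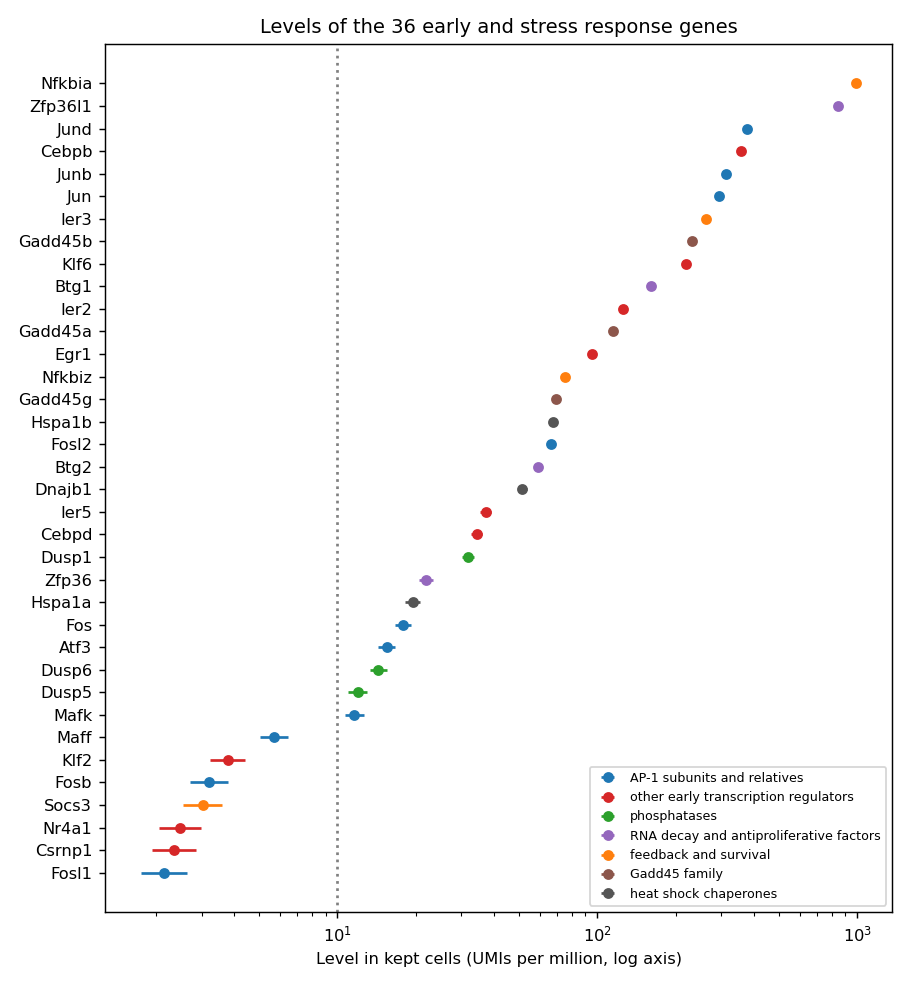
Level of each of the 36 genes in the kept cells, in UMIs per 1000000 on a log axis, with exact 95% Poisson intervals that are often narrower than the point; colours give the role of the gene and the dotted line is 10 CPM. Levels run from 985 CPM for Nfkbia to 2.16 CPM for Fosl1, and 7 genes lie left of the line.

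Among the AP-1 subunits and their relatives, the Jun side was far more abundant than the Fos side. Jund stood at 376.4 CPM (370.8 to 382.1), Junb at 312.4 CPM (307.3 to 317.6) and Jun at 293.9 CPM (288.9 to 298.9). The highest Fos family level was that of Fosl2, at 66.4 CPM (64.0 to 68.8). Fos itself, the classical early gene, stood at 17.9 CPM (16.7 to 19.1) and was seen in 2.64% of thinned cells. Fosb stood at 3.21 CPM (2.71 to 3.78) and Fosl1 at 2.16 CPM (1.75 to 2.63). Atf3, a stress-induced repressor that dimerises with Jun proteins, had 15.5 CPM (14.3 to 16.7). The small Maf proteins, which lack an activation domain, were low, with Mafk at 11.6 CPM and Maff at 5.72 CPM. UMIs from the 3′ end of transcripts are not divided by gene length here, and capture can differ from gene to gene.

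The other early transcription regulators spanned a similar range. Cebpb, a leucine zipper factor of inflammatory and growth responses, led with 355.8 CPM (350.3 to 361.3), and Klf6, a Krüppel-like factor, followed with 219.6 CPM (215.4 to 224.0). Ier2, an early response nuclear protein, stood at 125.2 CPM (122.0 to 128.5) and Egr1 at 95.4 CPM (92.5 to 98.2). The intervals of these 4 genes did not overlap. Ier5 had 37.2 CPM and Cebpd 34.3 CPM, whose intervals overlapped (35.5 to 39.0 and 32.6 to 36.03). Klf2 (3.78 CPM), the orphan nuclear receptor gene Nr4a1 (2.49 CPM) and Csrnp1 (2.35 CPM) were each seen in under 1% of kept cells.

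Genes of feedback and survival were the most abundant group of the set. Together they stood at 1324 CPM, with Nfkbia at 985.2 CPM (976.1 to 994.4), Ier3 at 261.1 CPM (256.4 to 265.8), Nfkbiz, an atypical nuclear IκB protein, at 74.9 CPM and Socs3, an inhibitor of cytokine receptor signalling, at 3.04 CPM. Among factors of RNA decay and growth arrest, Zfp36l1 reached 846.4 CPM (838.0 to 854.9) and its relative Zfp36 only 21.9 CPM (20.6 to 23.3). The antiproliferative genes Btg1 and Btg2 stood at 160.5 and 59.2 CPM. The 3 phosphatase genes were low, at 31.8 CPM for Dusp1, 14.4 CPM for Dusp6 and 11.99 CPM for Dusp5. The Gadd45 genes, which encode growth arrest and DNA damage proteins, stood at 231.0 CPM (Gadd45b), 115.1 CPM (Gadd45a) and 69.6 CPM (Gadd45g). The heat shock chaperone genes had 67.6 CPM (Hspa1b), 51.4 CPM (Dnajb1, which encodes an Hsp40 partner of Hsp70) and 19.5 CPM (Hspa1a).

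Promoter stretches are shown for the Hsp70 pair and for 4 genes that were detected together in the cells described below. These 4 all hold the motif marked, and not every gene detected with them does. RefSeq promoter windows on GRCm38.p6, from 250 bases before to 50 bases after a gene's start, were at hand for 31 of the 36 genes. Fosl1, Egr1, Ier2, Nfkbiz and Cebpd had no window and were not searched. The 250 bases before the start are printed 5′ to 3′ in the direction of the gene, and for the first 4 the capitals mark each match to the core of the cyclic AMP response element, TGACGT, on either strand.
Fos (chr12:85473640-85473889, + strand): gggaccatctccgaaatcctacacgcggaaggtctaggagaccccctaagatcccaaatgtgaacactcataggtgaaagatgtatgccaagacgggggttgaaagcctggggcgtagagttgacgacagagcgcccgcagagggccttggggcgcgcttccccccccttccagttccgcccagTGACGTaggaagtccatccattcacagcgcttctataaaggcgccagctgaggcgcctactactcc
Atf3 (chr1:191183334-191183583, - strand): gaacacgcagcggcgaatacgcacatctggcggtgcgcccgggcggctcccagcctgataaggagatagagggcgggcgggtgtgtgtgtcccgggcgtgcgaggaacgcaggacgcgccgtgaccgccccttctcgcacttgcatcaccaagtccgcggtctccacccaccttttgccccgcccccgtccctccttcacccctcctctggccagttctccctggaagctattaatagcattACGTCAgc
Dusp1 (chr17:26508473-26508722, - strand): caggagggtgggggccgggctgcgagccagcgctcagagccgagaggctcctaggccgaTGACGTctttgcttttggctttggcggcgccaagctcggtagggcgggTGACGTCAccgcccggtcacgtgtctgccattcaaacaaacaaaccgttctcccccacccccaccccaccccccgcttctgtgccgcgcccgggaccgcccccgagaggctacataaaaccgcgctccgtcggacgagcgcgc
Btg2 (chr1:134079156-134079405, - strand): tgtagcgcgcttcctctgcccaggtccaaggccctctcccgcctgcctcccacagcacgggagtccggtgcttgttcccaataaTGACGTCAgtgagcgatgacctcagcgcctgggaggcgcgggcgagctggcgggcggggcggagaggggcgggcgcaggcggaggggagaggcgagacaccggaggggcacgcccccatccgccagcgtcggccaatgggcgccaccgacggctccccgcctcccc
For the 2 Hsp70 genes the capitals mark the paired heat shock unit GAANNTTC.
Hspa1a (chr17:34972157-34972406, - strand): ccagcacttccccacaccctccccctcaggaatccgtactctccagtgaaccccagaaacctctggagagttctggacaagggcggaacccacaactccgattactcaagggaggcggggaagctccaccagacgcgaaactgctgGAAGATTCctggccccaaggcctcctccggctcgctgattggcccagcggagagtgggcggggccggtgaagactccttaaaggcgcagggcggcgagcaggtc
Hspa1b (chr17:34959239-34959488, - strand): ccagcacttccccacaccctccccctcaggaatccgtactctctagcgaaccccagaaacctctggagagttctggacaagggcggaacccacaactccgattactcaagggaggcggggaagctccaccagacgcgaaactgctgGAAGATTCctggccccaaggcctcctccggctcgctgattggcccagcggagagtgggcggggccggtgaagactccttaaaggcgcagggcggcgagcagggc

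The core TGACGT was in the windows of 7 of the 31 genes (22.6%) and in those of 8.37% of all 27025 genes in the table. The genes were Atf3, Btg1, Btg2, Dusp1, Dusp5, Fos and Maff, and this motif was searched after their values were known. Zfp36 and Dusp6, which were also past 2-fold higher in the Fos-positive cells described below, had windows with no match. Egr1 and Ier2, past 2-fold there too, had no window. The full element TGACGTCA, which contains the core, was in the windows of Btg2, Dusp1 and Maff (9.68%, against 2.03% of all genes). An NF-κB site was in the windows of 7 genes, Fos, Fosb, Fosl2, Ier3, Maff, Nfkbia and Nr4a1 (22.6%, against 5.14%). The AP-1 site TGANTCA was found for Csrnp1 and Zfp36l1 (6.45%, against 8.97%), a CArG box for Dusp5 and Zfp36 (6.45%, against 1.81%), and GAANNTTC for Fosl2, Hspa1a, Hspa1b and Jun (12.9%, against 9.04%). A match describes letters in a window and is no evidence of binding, and sites outside the windows were not searched. The stretches of Hspa1a and Hspa1b differ at 3 of 250 bases, and the 2 genes are near-identical copies, so how reads were divided between them is uncertain.

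Cells were then gated by markers outside the set. Epithelial-gated cells had at least 3 UMIs of Epcam, Cdh1, Krt5 and Krt14 together and none of Vim, Col1a1, Col1a2, Col3a1, Col5a1, Aebp1 and Dcn, and they numbered 11606 (77.8% of kept cells, median 2993 UMIs). Mesenchymal-gated cells had at least 3 UMIs of the second list and none of Epcam and Cdh1, and they numbered 1373 (9.20%, median 3353 UMIs). In all, 195 cells had at least 3 UMIs of both lists, 41 of them inside the mesenchymal gate through Krt5 and Krt14, and 1792 cells met none of these rules; 673 cells missed the epithelial gate and 281 the mesenchymal gate by having only 1 or 2 UMIs of its markers. Of the markers not used for gating, Trp63, Cldn4, Krt17 and Dsp were higher in epithelial-gated cells and Zeb1, Zeb2, Snai1 and Col6a1 in mesenchymal-gated cells, while Krt15, Twist1 and Pdgfrb were below 5 CPM in both gates. Among the genes of the epithelial gate itself, which helps to set their separation, Krt5 had a UMI in 61.9% of thinned epithelial-gated and in 1.61% of thinned mesenchymal-gated cells, with levels 79.3-fold apart. Krt14, also a gate gene, was 9.24-fold apart, and Krt17, which is not, 8.57-fold. Free RNA from lysed cells was not measured apart from these values.

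Egr1, Ier2, Fos, Atf3, Klf6 and Btg2 were at least 2-fold higher in epithelial-gated than in mesenchymal-gated cells, and Gadd45g, Gadd45a, Cebpd and Cebpb were at least 2-fold higher in mesenchymal-gated cells. Egr1 showed the largest difference in the first direction, with 109.5 CPM (106.1 to 112.9) against 25.4 CPM (21.0 to 30.4), a ratio of 4.31 (exact 95% interval 3.60 to 5.21). Ier2 stood at 141.6 against 44.8 CPM, a ratio of 3.16 (2.75 to 3.64). Both genes encode nuclear proteins of the first wave, and for both the intervals of the 2 levels lay far apart. Klf6 stood at 241.6 against 95.6 CPM (ratio 2.53, 2.30 to 2.78) and Btg2 at 65.3 against 27.7 CPM (ratio 2.36, 1.98 to 2.83). Fos had 20.2 CPM in epithelial-gated and 7.19 CPM in mesenchymal-gated cells (ratio 2.81, 1.99 to 4.09), the latter from 34 UMIs. Atf3 had 17.2 and 6.14 CPM (ratio 2.80, 1.93 to 4.21), the latter from 29 UMIs.

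**Figure D2:**
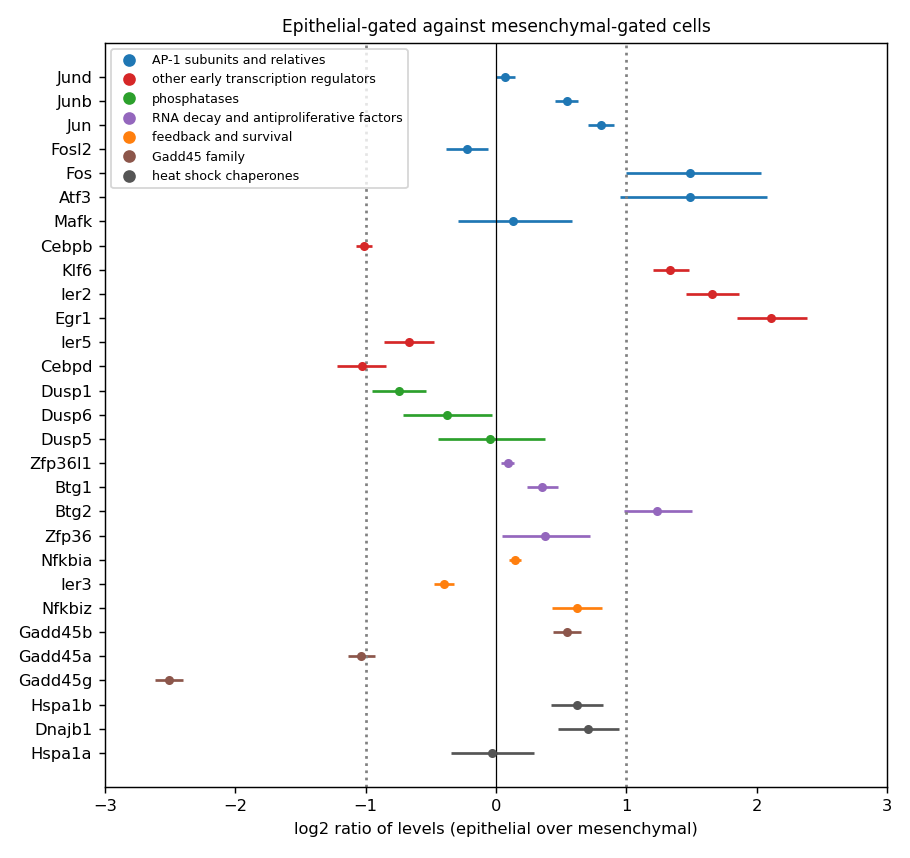
Ratio of the level in epithelial-gated to that in mesenchymal-gated cells for the 29 genes at 10 CPM or more, as log2, with exact 95% intervals for counting error; dotted lines are 2-fold and colours give roles. Egr1 lies farthest to the right (ratio 4.31) and Gadd45g farthest to the left, 5.70-fold higher in mesenchymal-gated cells.

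In the other direction Gadd45g stood at 43.9 CPM (41.7 to 46.1) in epithelial-gated and 249.8 CPM (235.8 to 264.5) in mesenchymal-gated cells, 5.70-fold higher (5.28 to 6.15) in the latter. It had a UMI in 24.9% of thinned mesenchymal-gated and 6.21% of thinned epithelial-gated cells. Its relative Gadd45a was 2.05-fold higher (1.91 to 2.20) in mesenchymal-gated cells, while Gadd45b was 1.46-fold higher (1.36 to 1.57) in epithelial-gated cells. The 3 members of the family thus differed in direction. Cebpb was 2.02-fold (1.94 to 2.10) and Cebpd 2.04-fold (1.79 to 2.33) higher in mesenchymal-gated cells, ratios that lie just past 2-fold.

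Of the 29 genes at 10 CPM or more, 6 were past 2-fold on the epithelial side, where 11.9% of all genes at that level were, and 4 on the mesenchymal side, where 7.39% of all such genes were. The median ratio was 1.10 for the set and 1.05 for all genes tested. Jun (ratio 1.75) and Junb (1.45) were higher in epithelial-gated cells by less than 2-fold, and Jund (1.05), Zfp36l1 (1.06) and Nfkbia (1.10) differed little. A restriction to cells with under 3% mitochondrial UMIs was added after the values were seen. Among these cells Fos (1.98), Atf3 (1.86), Btg2 (1.93) and, in the other direction, Gadd45a (0.503) no longer reached 2-fold. There 3 genes were past it in each direction, and the share of all genes in these cells is not given here. Without cells that held a Ltf or Lcn2 UMI, the ratio of Fos was 1.81 and that of Btg2 was 1.97.

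The limit of 10 CPM was read in kept cells, 77.8% of which were epithelial-gated, so it favours genes of those cells. Some genes under 10 CPM, which the count leaves out, were more abundant in mesenchymal-gated cells. Klf2 had 14.4 CPM (11.2 to 18.2) there, from 68 UMIs, and 2.36 CPM (1.88 to 2.92) in epithelial-gated cells, a 6.10-fold difference (4.37 to 8.49). Socs3 was 3.76-fold, Fosl1 3.63-fold, Fosb 3.17-fold, Csrnp1 2.58-fold and Maff 2.39-fold higher in mesenchymal-gated cells. Fos and Fosb, whose proteins are close relatives, therefore lay on opposite sides. Nr4a1 had 6 UMIs in mesenchymal-gated cells, too few to place it (ratio 2.08, 0.919 to 5.80).

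Within epithelial-gated cells, a further gate read Ltf and Lcn2, which encode the secreted iron-binding defence proteins lactoferrin and lipocalin-2. Cells with at least 3 UMIs of Ltf and Lcn2 together, 997 in number and called Ltf/Lcn2-high here, were set against 9508 cells with none, and 1101 cells with 1 or 2 were left out. The set supplied 0.685% of UMIs in Ltf/Lcn2-high cells and 0.481% in Ltf/Lcn2-zero cells. Of the 29 genes at 10 CPM or more, 10 were at least 2-fold higher in Ltf/Lcn2-high cells and none was lower by as much, where 2.23% of all genes at that level were past 2-fold higher and 2.52% lower. Fos stood at 76.97 CPM (67.8 to 87.1) against 12.4 CPM (11.2 to 13.7), a ratio of 6.21 (5.26 to 7.31), and had a UMI in 11.9% against 1.78% of thinned cells. Among the 29 genes the next was Dusp1, the phosphatase that switches off stress-activated MAP kinases. It stood at 86.4 CPM (76.6 to 97.1) against 21.8 CPM (20.1 to 23.5), a ratio of 3.97 (3.44 to 4.58). Klf2, under 10 CPM in kept cells and so outside the count, had a larger ratio than Fos. It stood at 9.73 against 1.40 CPM (ratio 6.93, 4.23 to 11.3), from 32 and 41 UMIs. The other genes under 10 CPM had ratios from 1.23 (Socs3) to 1.99 (Fosb).

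Every role but the Gadd45 family had a gene among the 10. Atf3 had 40.8 against 13.5 CPM (ratio 3.01, 2.46 to 3.67) and Btg2 137.5 against 54.4 CPM (ratio 2.53, 2.27 to 2.81). Dusp5, a nuclear phosphatase of ERK, had a ratio of 2.51 (1.94 to 3.21). On the NF-κB side, Nfkbiz had a ratio of 2.36 (2.13 to 2.60) and Ier3 one of 2.28 (2.16 to 2.41), while Nfkbia was only 1.32-fold higher (1.28 to 1.36). Cebpb (2.10), Hspa1b (2.10) and Hspa1a (2.03) lay just past 2-fold. Zfp36 (1.96) and Egr1 (1.84) lay just inside it. Fosl2 (ratio 0.775, 0.658 to 0.907), Klf6 (0.820) and Gadd45g (0.726) were the 3 genes lower in Ltf/Lcn2-high cells.

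The median ratio was 1.45 for the set and 0.959 for all genes tested. Ltf/Lcn2-high cells also had a higher median mitochondrial share, 3.64% against 2.57%, at median depths of 3156 and 2961 UMIs. The relation was therefore read within bands of mitochondrial share. For Fos the ratio was 5.98 (3.03 to 10.9) in cells under 2%, 4.38 (3.11 to 6.06) from 2% to 3%, 6.06 (4.64 to 7.94) from 3% to 5% and 5.30 (3.24 to 8.96) from 5% to 10%. For Dusp1 it was 2.66, 3.75, 3.28 and 4.69 in the same bands. Fos and Dusp1 were past 2-fold in every band, and no other of the 10 genes was. All 10 had ratios above 1 in each of the 4 bands, but only 6 were at 2 or more in each of the first 3 bands and 9 in the last. Under 2%, the intervals of Atf3 (1.77, 0.635 to 3.98), Btg2 (1.60, 0.923 to 2.61), Nfkbiz (1.60, 0.981 to 2.48) and Hspa1a (1.69, 0.606 to 3.79) held 1, and from 3% to 5% Cebpb (1.74), Dusp5 (1.62), Hspa1a (1.56) and Hspa1b (1.70) were under 2-fold.

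**Figure D3:**
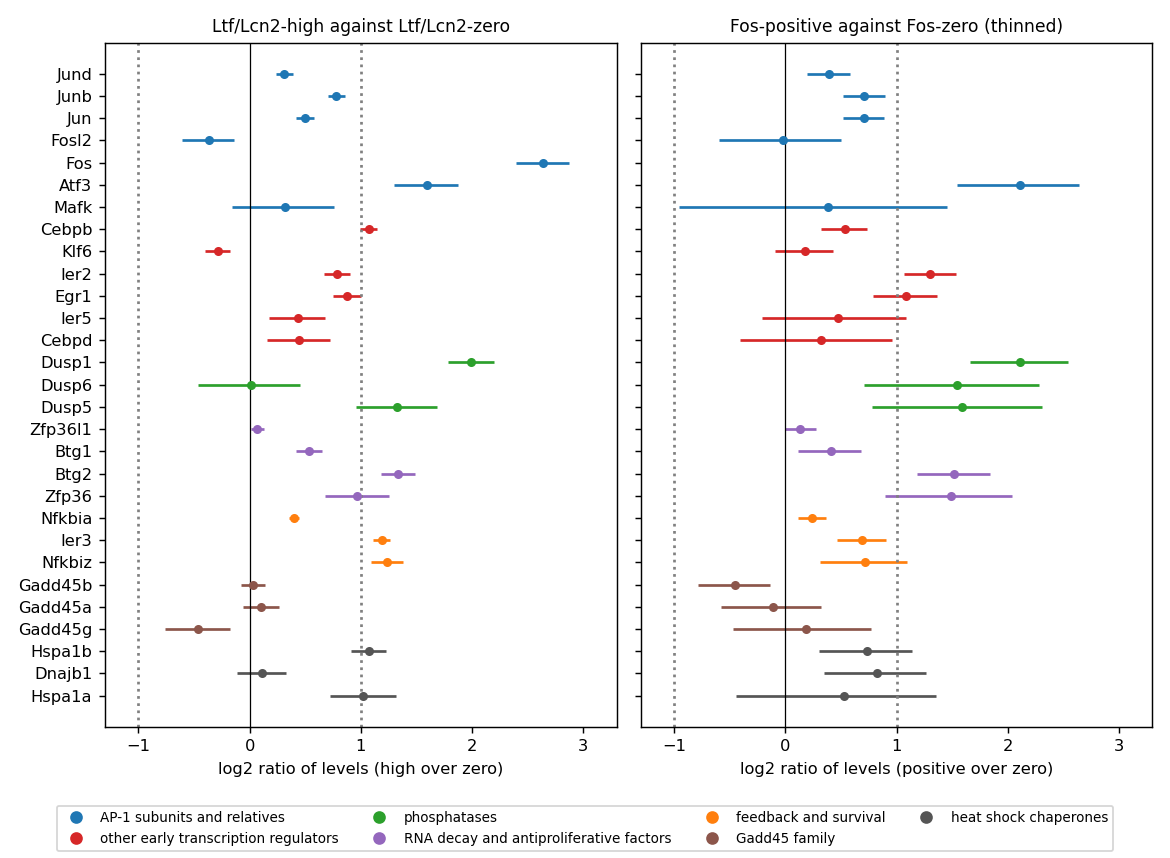
Ratio of levels, as log2 with exact 95% intervals for counting error, in Ltf/Lcn2-high over Ltf/Lcn2-zero cells (left) and in Fos-positive over Fos-zero cells (right), for genes at 10 CPM or more; dotted lines are 2-fold, colours give roles, and Fos has no point on the right because it defines the cells. Fos (ratio 6.21) and Dusp1 (3.97) lie farthest to the right on the left side, and Atf3 and Dusp1 (both 4.33) on the right side.

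The transcripts of this first wave were also found in the same cells. Among thinned epithelial-gated cells, 310 had at least 1 Fos UMI and 10405 had none. Atf3 stood at 71.0 CPM (48.9 to 99.7) in Fos-positive and 16.4 CPM (14.5 to 18.5) in Fos-zero cells, a ratio of 4.33 (2.92 to 6.23). Dusp1 stood at 107.5 against 24.9 CPM (ratio 4.33, 3.16 to 5.82). All 3 phosphatase genes were past 2-fold, with Dusp5 at a ratio of 3.003 (1.71 to 4.94) and Dusp6, which acts on ERK in the cytoplasm, at 2.92 (1.63 to 4.87). Btg2 (2.86), Zfp36 (2.81), Ier2 (2.47) and Egr1 (2.12) followed. In all, 8 of the 28 other genes were past 2-fold higher and none lower, where 1.74% of all genes were past 2-fold higher and 4.62% lower.

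Fos-positive cells were not marked by all of the set. Jun and Junb were 1.63-fold and 1.64-fold higher, Nfkbia 1.18-fold (1.08 to 1.29), Fosl2 was level (0.986) and Gadd45b was lower (0.732, 0.581 to 0.911). Of the Fos-positive cells 43.2% (37.6 to 48.9) held a Ltf or Lcn2 UMI, against 13.02% (12.4 to 13.7) of Fos-zero cells, and their median mitochondrial share was 3.17% against 2.66%. These shares were read on thinned UMIs. Without any cell that held such a UMI before thinning, 155 Fos-positive cells remained. The ratio was then 4.74 for Dusp1, 4.40 for Atf3, 3.34 for Dusp6, 2.72 for Btg2, 2.49 for Ier2 and 2.41 for Hspa1a (1.08 to 4.66, 9 UMIs), while Zfp36 (1.74), Egr1 (1.62) and Dusp5 (1.25) were under 2-fold. Among cells with under 3% mitochondrial UMIs, Egr1 (1.40), Dusp5 (1.46) and Zfp36 (1.57) again lay under 2-fold. Of the genes under 10 CPM, Fosb (ratio 6.91, 2.59 to 15.8, 7 UMIs), Socs3 (6.50, 2.22 to 15.8, 6 UMIs) and Klf2 (6.45, 1.94 to 17.1, 5 UMIs) were also more abundant in Fos-positive cells. Most counts behind these ratios are small: Dusp5 had 17 UMIs and Dusp6 16 UMIs in the Fos-positive cells.

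The same cells were also read pair by pair. For every pair of genes, the number of thinned epithelial-gated cells with both genes was divided by the number that their separate shares of cells give. Of 399 pairs within the set with at least 5 cells given by the shares, 37 (9.27%) had a ratio of 1.5 or more, against 2.26% of all such pairs of genes at 10 CPM or more. The pair Fos and Atf3 led, with 30 cells where the shares gave 7.64 (ratio 3.93, 2.65 to 5.61). Fos and Dusp1 were found together in 37 cells where the shares gave 11.4 (ratio 3.25, 2.29 to 4.49). Atf3 and Dusp1 had a ratio of 2.79 (1.84 to 4.06), Fos and Zfp36 2.70, Fos and Btg2 2.44, and Fos and Ier2 2.16, the last from 122 cells. In all, 10 pairs reached a ratio of 2, and each of them held Fos or Atf3. The number of pairs at 1.5 or more was 21 without cells that held a Ltf or Lcn2 UMI. Fewer cells leave fewer pairs with at least 5 cells given by the shares. The number of such pairs and the share over all genes are not given here, so 21 cannot be set against 37.

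**Figure D4:**
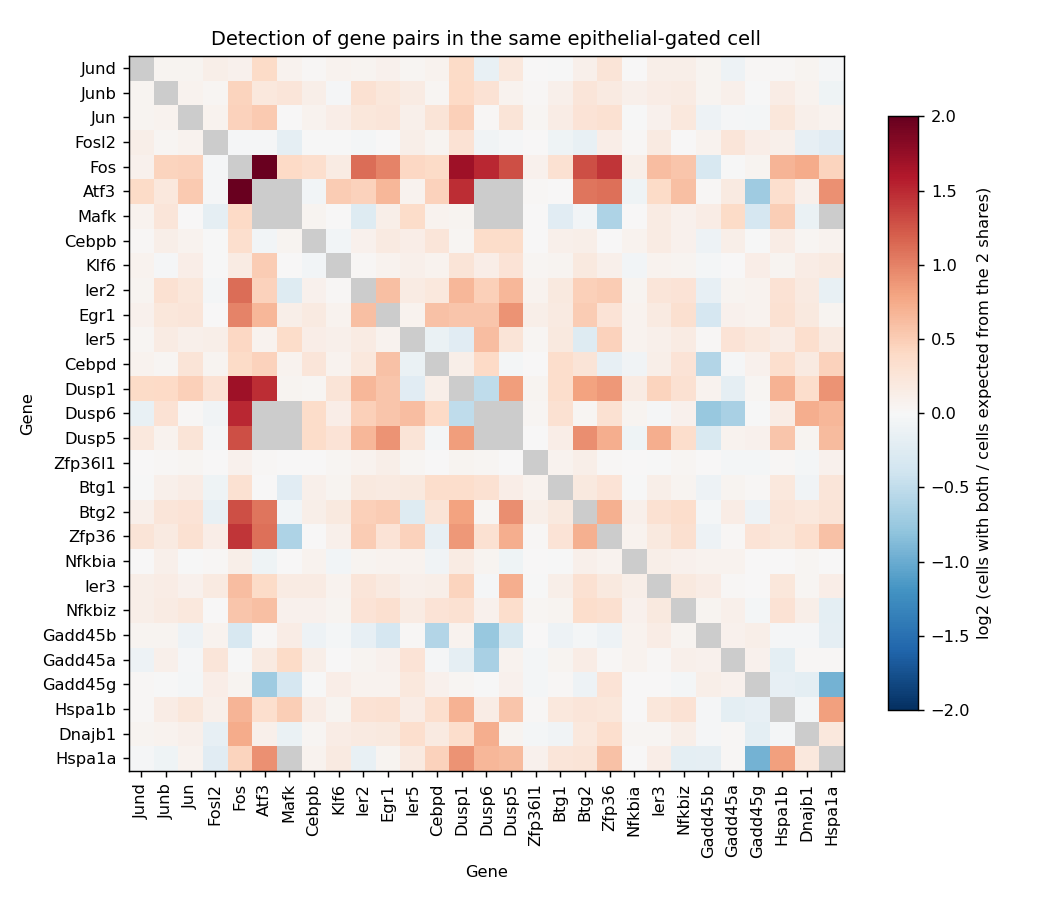
Log2 of the number of thinned epithelial-gated cells with a UMI of both genes over the number that their separate shares give, for the 29 genes at 10 CPM or more; red is more often and blue less often together, and grey marks the diagonal and pairs with under 5 cells given by the shares. The darkest squares join Fos with Atf3 (ratio 3.93) and Dusp1 (3.25). Zfp36l1 and Nfkbia have pale rows, but they were seen in 68.4% and 63.7% of these cells. A gene seen in most cells cannot reach a high ratio, so pale rows do not show less co-detection than for rarer genes.

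Over single cells the correlations within the set were low, and they are given as a description. The correlation of each gene's log-transformed thinned UMIs with the sum of the other genes of the set, over 10715 epithelial-gated cells that share 1 library and 1 depth, ran from 0.0067 (Gadd45g) to 0.149 (Junb) among the 29 genes. Of these, 8 genes reached 0.1, namely Junb, Ier3, Ier2, Egr1, Btg2, Dusp1, Fos and Nfkbia, while 0.52% of all genes at that level reached 0.1 with the sum of the set. With cells thinned to 1000 UMIs only 2 genes reached it, and the share of all genes at that depth is not given here. Gadd45b and Gadd45g stood outside, both below 0.01. Among genes outside the set the highest correlations were those of Cxcl1 (0.236) and Cxcl5 (0.192), chemokines that attract neutrophils, Lcn2 (0.189), Ly6d (0.179), Sat1 (0.165), Ltf (0.162), Cbr2 (0.154), Gsto1 (0.149), Nupr1 (0.148) and Phlda1 (0.145). The variance of the set's summed UMIs over thinned cells was 1.997 times its mean. Of the set, 15 genes had a mean of at least 0.1 UMIs, with a median variance to mean ratio of 1.28, against 1.05 over 2624 genes.

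Chemokine transcripts were used for another gate within epithelial-gated cells. Chemokine-high cells, with at least 3 UMIs of Cxcl1, Cxcl2, Cxcl3, Cxcl5, Ppbp, Ccl2 and Ccl20, numbered 8770 and were set against 1248 cells with none. None of the 29 genes at 10 CPM or more reached 2-fold. Over all genes 1.44% were past it higher and 0.993% lower, so that count is close to the general share. Nfkbia came closest, at 1085 CPM against 564.2 CPM (ratio 1.92, 1.83 to 2.03), with Ier3 at a ratio of 1.92 (1.73 to 2.14), Nfkbiz at 1.62 (1.36 to 1.94) and Gadd45b at 1.48 (1.34 to 1.63). Fos (1.26, 0.924 to 1.76) and Dusp1 (0.839, 0.675 to 1.05) had intervals that held 1. The 2 kinds of cell differed in depth, with medians of 3258.5 and 1883.5 UMIs. A gate of 3 UMIs is easier to pass in deep cells. Klf2, under 10 CPM in kept cells, had a ratio of 6.70 (1.17 to 268), with only 1 UMI in the cells without chemokine UMIs. Cxcl1 and Cxcl5, which belong to this gate, had the highest correlations of outside genes with the sum of the set (0.236 and 0.192).

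Dividing cells held less of the set. Epithelial-gated cells with at least 3 UMIs of 12 mitosis and replication genes, 2058 in number, were set against 8116 cells with none, and the set supplied 0.436% of UMIs in the former and 0.533% in the latter. No gene was past 2-fold (3.78% of all genes were higher and 1.18% lower by as much), but only 4 of 29 had a ratio above 1, and the median ratio was 0.811 against 0.971 for all genes. Dusp5 (ratio 0.604), Btg2 (0.647) and Jun (0.671) were the lowest. Dusp6 (1.18, 0.951 to 1.47) and Ier5 (1.13, 0.986 to 1.29) were the highest, with intervals that held 1. Fosl1, under 10 CPM in all cells, was 2.41-fold higher in dividing cells (1.31 to 4.39). Dividing cells were also deeper, with a median of 3734 against 2835.5 UMIs. Their median mitochondrial share was lower, 2.25% against 2.82%. The part of these differences in the lower share of the set was not tested.

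Cells with at least 3 UMIs of squamous differentiation genes numbered 1679 and were set against 6439 with none. None of the 29 genes at 10 CPM or more was past 2-fold (0.0946% of all genes were higher and 0.638% lower). The ratios of the 29 genes ran from 0.693 (Cebpd) to 1.26 (Egr1).

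The levels of several genes moved with the share of mitochondrial UMIs, a value that is often read as a sign of stressed or leaking cells. In epithelial-gated cells Fos stood at 10.6 CPM in cells under 2%, 16.4 CPM from 2% to 3%, 25.9 CPM from 3% to 5% and 56.3 CPM from 5% to 10%, a 5.30-fold difference (3.91 to 7.19) between the outer bands. Dusp1 stood at 21.0, 23.6, 37.7 and 60.8 CPM and Btg2 at 48.3, 58.1, 78.6 and 114.3 CPM in the same bands. Each of these 3 genes was higher in each band than in the one before. In all, 8 of 29 genes, Fos, Dusp1, Dusp5, Btg2, Nfkbiz, Cebpd, Hspa1a and Hspa1b, were at least 2-fold higher in the highest of the 4 bands than in the lowest and none was lower by as much, where 3.06% of all genes were higher and 2.55% lower. The median ratio was 1.42 for the set and 1.07 for all genes. Gadd45b moved the other way, from 266.0 to 173.4 CPM, and Jund (385.8 and 353.6 CPM) and Dnajb1 (56.5 and 59.7 CPM) differed little.

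**Figure D5:**
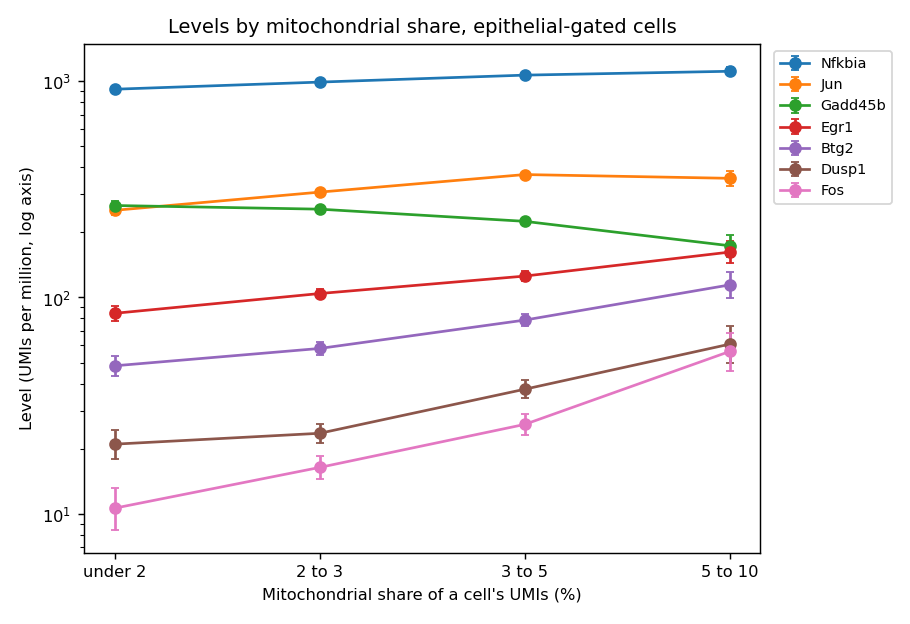
Level of 7 genes, in UMIs per 1000000 on a log axis, in epithelial-gated cells grouped by the mitochondrial share of their UMIs (2428, 4804, 3654 and 677 cells from left to right), with exact 95% Poisson intervals. Fos goes from 10.6 to 56.3 CPM and Dusp1 from 21.0 to 60.8 CPM, while Gadd45b goes from 266.0 to 173.4 CPM.

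Ltf/Lcn2-high cells were unevenly spread over the same bands, with 60 of 2428, 244 of 4804, 508 of 3654 and 182 of 677 cells. Among cells with no Ltf or Lcn2 UMI, Fos stood at 9.38 CPM under 2%, 12.9 CPM from 2% to 3%, 12.5 CPM from 3% to 5% and 23.1 CPM from 5% to 10%. Among Ltf/Lcn2-high cells it stood at 56.1, 56.4, 76.0 and 122.6 CPM. In the 43 epithelial-gated cells at 10% or more, with 70802 UMIs in all, 1 gene of the set (Fos, 5 UMIs) was past 2-fold higher than in cells under 5% and 6 were lower, where 15.3% of all genes were higher and 22.2% lower. At that depth most genes of the set could not be placed.

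Dissociation and sorting can add to all of these levels. Every cell was dissociated and sorted for RFP before capture, and no undissociated or unsorted cell was analysed here, so transcripts present in culture and transcripts made during handling cannot be told apart. Of 48 further genes associated with dissociation in earlier studies, 46 reached 10 CPM. Their median ratio was 0.967 both between Ltf/Lcn2-high and Ltf/Lcn2-zero cells and between Fos-positive and Fos-zero cells. The list leaves out the genes of the set and of the other lists, so its median cannot show what dissociation added. One of the 46 was past 2-fold higher in each comparison, Sat1, a polyamine-degrading enzyme, at ratios of 3.41 and 2.29. Of 18 further heat shock response genes none was past 2-fold higher in either comparison. The part of dissociation, sorting or serum in the Fos, Dusp1 and Atf3 differences was not tested.

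Other genes of the same pathways were read in the comparisons of Ltf/Lcn2-high and of Fos-positive cells. Of 10 further ERK feedback genes 5 were measured at 10 CPM or more, and Dusp4, a nuclear phosphatase, was past 2-fold higher in Ltf/Lcn2-high cells (49.3 against 13.3 CPM, ratio 3.71) and in Fos-positive cells (2.68). Of 17 measured further early response genes, Id2 (2.51) and Ppp1r15a (2.35), which encodes a phosphatase subunit of the stress response, were past 2-fold in Ltf/Lcn2-high cells, and Id2 (3.09) in Fos-positive cells. Of 12 measured NF-κB target genes, Tnfaip2 (3.91) and Zc3h12a (2.37), an RNase that limits cytokine mRNAs, were past 2-fold higher in Ltf/Lcn2-high cells, and Zc3h12a (2.15, 1.44 to 3.09) in Fos-positive cells. The median ratios of the 3 lists were 1.60, 1.05 and 1.51 in Ltf/Lcn2-high cells and 1.69, 1.25 and 1.13 in Fos-positive cells, where 2.23% and 1.74% of all genes were past 2-fold higher. None of these 3 lists had a gene past 2-fold lower in either comparison.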

How the data were processed

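The matrix held UMI counts per gene and cell barcode, deposited by the authors as whole numbers with no normalization; per the file headers CellRanger 8.0.1 wrote them. The submitters' processing notes name the genome build mm10 and Scanpy 1.8.2. Neither the labels nor the header say which of the 3 libraries supplied the matrix, so it was treated as 1 sample, and the other libraries were not used here. The lowest barcode total was 500 UMIs.

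Cells were filtered, gated by summed raw UMIs and compared by summed counts scaled to CPM, with numpy 2.4.6, scipy 1.17.1 and pandas 2.3.3. A gene was past 2-fold at a ratio of 2 or more either way, among genes with 10 CPM or more in kept cells and outside the gate. Ratios have exact conditional binomial 95% intervals and shares Clopper-Pearson ones. Thinning drew 1500 UMIs a cell without replacement. No doublet caller was run; of 195 cells with both marker lists 154 were in neither gate and 41 in the mesenchymal gate, and alternatives left out these 41 cells or the 5% of cells with the most UMIs. The steps were tested on simulated counts.

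The members, gates and companion lists were chosen with earlier results of these data known. The genes named are all members, the 10 outside genes with the highest correlation with their sum, and companion genes past 2-fold, up to 4 a direction. Pair detection, bands of mitochondrial share and the promoter search were added after the files were seen. Promoter sequences are from RefSeq on GRCm38.p6. A planned comparison within epithelial-gated cells is not reported here.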

Additional observations from a re-analysis of the deposited data

Results flagged for a closer look

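The 3191 barcodes left out of the comparisons still held UMIs of the set. They had a median of 696 UMIs and a median mitochondrial share of 12.1%, and 292 of them had over 20% mitochondrial UMIs. The set supplied 5882 of their UMIs, or 0.258% (exact 95% binomial interval 0.252 to 0.265), against 0.501% in kept cells. A count of 0 would allow a limit of 0.000132%. Passing that limit shows nothing, because the set holds abundant genes such as Nfkbia (748.0 CPM in these barcodes). No comparison above uses these barcodes, and whether their UMIs came from free RNA was not tested. Fos stood at 7.47 CPM in these barcodes, against 17.9 CPM in kept cells, and most genes of the set were lower there. Fosb (7.47 against 3.21 CPM), Nfkbiz (101.5 against 74.9 CPM) and Btg1 (181.4 against 160.5 CPM) were among those that were higher.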

How the results depend on the processing

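Of 106 counts of genes or pairs under other settings, 81 stayed within 1.5 times the reported count. Of 416 settings of single-gene ratios 5 turned direction. All 5 were in the comparison of cells high and low in mitochondrial share, which at the main limit held 43 high cells. Of 216 settings of single-gene levels, 59 fell outside the interval of the reported level. The share of UMIs from the set was 0.507% in cells with at least 1000 genes and 2000 UMIs, 0.503% at 10% mitochondrial UMIs or less, 0.489% over all barcodes, 0.503% without the 5% of cells with the most UMIs and 0.532% with mitochondrial, GFP and Scar UMIs left out of the total. The counts that follow are given without the share of all genes or pairs at the same setting. They show how the counts moved and are no result about the set. With no minimum level, the genes past 2-fold numbered 17 between epithelial-gated and mesenchymal-gated cells, 1 for dividing, 1 for chemokine-high, 1 for differentiation-high and 14 for high-mitochondrial cells. At 1.5-fold they numbered 16, 2, 4 (chemokine-high), 17 (high-mitochondrial) and 14 (Fos-positive). Gates read on thinned cells gave 1 for dividing and 13 for high-mitochondrial cells; the deeper cells gave 1 for chemokine-high and 13 for high-mitochondrial cells, all barcodes 11 for the latter and a limit of 7.5% gave 3. With that limit Cebpd (ratio 1.10), Zfp36 (1.44), Gadd45g (1.28) and Hspa1a (1.504) turned direction, as did Cebpd (1.60) in the deeper cells. A gate of 2 Fos UMIs gave 18, thinning to 1000 UMIs left 2 genes at a correlation of 0.1, leaving out cells with a Ltf or Lcn2 UMI gave 21 pairs, and cells under 3% mitochondrial UMIs gave 6 genes between epithelial-gated and mesenchymal-gated cells. The cause of these shifts was not tested, apart from the fewer cells or UMIs that stricter settings leave. No paired analysis was possible because there is 1 culture and 1 matrix. High-mitochondrial cells could not be compared at 10% mitochondrial UMIs or less, where none remain.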

Other observations

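The companion lists differed between epithelial-gated and mesenchymal-gated cells gene by gene. Among further early response genes Klf4, a factor of epithelial differentiation, was 5.64-fold (4.58 to 7.02) and Trib1 2.35-fold higher in epithelial-gated cells, while Id3 was 3.44-fold (3.32 to 3.56) and Ccn1, a matricellular protein, 2.42-fold higher in mesenchymal-gated cells. Among ERK feedback genes Errfi1, an inhibitor of the EGF receptor, was 2.25-fold higher in epithelial-gated cells and Dusp4 2.59-fold higher in mesenchymal-gated cells. The NF-κB targets Icam1 (ratio 4.91) and Tnfaip2 (4.62) were higher in epithelial-gated cells. Of the 18 further heat shock response genes, Cryab was 7.90-fold (6.95 to 8.99) and Dnajb4 4.08-fold (3.67 to 4.54) higher in mesenchymal-gated cells and Fkbp4 2.16-fold higher in epithelial-gated cells. Of the dissociation-associated genes, Mt2 (4.12), Idi1 (2.98), Mt1 (2.55) and Irf1 (2.30) were past 2-fold on the epithelial side, and Zyx, Ncoa7 and Tubb6 were among those past it on the mesenchymal side.

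Depth also went with some levels in epithelial-gated cells. In 4 equal groups of cells from the fewest to the most UMIs, Fos stood at 29.2, 24.0, 16.8 and 17.3 CPM and Btg2 at 89.3, 72.6, 64.7 and 53.2 CPM. Ier3 stood at 181.2, 213.2, 240.1 and 310.5 CPM. The share of UMIs from the set was between 0.501% and 0.515% in all 4 groups.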
